A study of Mus musculus with 8 samples.

Results

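The genes described here encode 8 interferon regulatory factors, Irf1, Irf2, Irf3, Irf4, Irf5, Irf7, Irf8 and Irf9. The measurement is the DNA methylation of CpGs in and around them in mouse hematopoietic stem cells, by enhanced reduced representation bisulfite sequencing, which reads CpG-rich restriction fragments after unmethylated cytosines have been converted. The loci were taken from 5 kb before to 5 kb after each gene, and a CpG was kept when at least 3 mice of each group had 10 or more reads over it. This left 734 of the 1711 CpGs listed for any mouse in the loci, out of 1278034 such CpGs on all autosomes. The genes were chosen with earlier results on the same mice known, among them the level at the start of Irf4, so that level is given as a description.

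Interferon regulatory factors are transcription factors that share a DNA-binding domain with a row of conserved tryptophans and recognise GAAA repeats, alone or with partners. Irf3, Irf7 and Irf5 carry signals from nucleic acid sensors to interferon and cytokine genes, Irf9 carries the signal of the interferon receptor to its targets, Irf1 and Irf2 act on overlapping sites, and Irf4 and Irf8 are best known from blood cell development. In mouse hematopoietic stem cells interferon drives cells out of quiescence, and Irf2 is known to restrain that response. Methylation of a CpG-rich gene start usually goes with a silent gene, but no RNA was measured here.

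The Atg12 knockout group held 4 C57BL/6 mice with a loxP-flanked Atg12 gene and the Mx1-Cre transgene, numbered 25, 28, 45 and 46. The control group held 4 C57BL/6 mice, numbered 1, 34, 36 and 37. Atg12 encodes a ubiquitin-like protein needed to form autophagosomes. Per the design text the controls had the floxed gene and no Cre, while their genotype label reads WT. All 8 mice were given poly(I:C) at 4 weeks of age, and stem cells (bone marrow cells that were Lin-, c-Kit+ and Sca-1+ as well as CD150+, and lacked CD48 and Flk2) were sorted from each mouse 2 to 3 months later, without culture. Poly(I:C) induces interferon, which switches on Mx1-Cre in stem cells and in other cell types, so an earlier interferon response was common to both groups. Values per mouse below follow the order of the mouse numbers just given.

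The tables listed 2038266 to 3366162 cytosines per mouse. At the Irf loci 699 to 733 of the 734 CpGs had 10 or more reads in a mouse, with a median of 216.5 to 278 reads. The libraries differed in how deeply methylated DNA was read: the coverage of methylated over unmethylated CpGs was 0.46 ± 0.0905 in knockouts and 0.559 ± 0.213 in controls (SD, n = 4 each), lowest in control 34 (0.259) and knockout 25 (0.338). Cytosines of the Y chromosome made up 8.52 ± 0.472 per 10000 listed in knockouts and 1.45 ± 0.286 in controls, and as the groups do not overlap, an effect of genotype and one of Y content cannot be told apart below. Of the 8 stem cell markers, Kit, Procr, Mecom and Hlf had measured starts, none above 0.195% methylated. Of the B cell markers, Vpreb1 was at 97.2% and Cd79b at 2.27%. Cd79b had no listed start, and the gene end with more listed CpGs stood in for it. Of the erythroid markers, Klf1 was at 0.471%, Epor at 26.2% and Ermap at 96.0%, and no start of the T cell or of the granulocyte and monocyte markers was measured.

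The promoters of the family differed in how many CpGs they hold. In the 300 bases from 250 before to 50 after the start, there are 38 CpGs in Irf8, 35 in Irf5, 32 in Irf1, 19 in Irf2, 18 in Irf3, 11 in Irf4, 9 in Irf9 and 7 in Irf7, against a median of 7 over 27025 mouse promoters. The promoters of 4 genes are printed in the direction of transcription, from RefSeq on GRCm38.p6. Irf1 and Irf8 show a CpG-dense start, Irf2 a start with interferon-type motifs, and Irf4 the start of the gene whose surrounding window was partly methylated. Capitals mark the CpGs whose methylation was measured.

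Irf1 promoter, chr11:53769764-53770063, plus strand: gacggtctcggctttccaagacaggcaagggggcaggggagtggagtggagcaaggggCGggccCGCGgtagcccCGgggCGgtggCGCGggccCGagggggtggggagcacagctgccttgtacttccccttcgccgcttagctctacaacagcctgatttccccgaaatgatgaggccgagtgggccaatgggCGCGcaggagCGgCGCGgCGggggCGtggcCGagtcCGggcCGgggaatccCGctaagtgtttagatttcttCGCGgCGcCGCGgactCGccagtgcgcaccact

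Irf2 promoter, chr8:46739495-46739794, plus strand: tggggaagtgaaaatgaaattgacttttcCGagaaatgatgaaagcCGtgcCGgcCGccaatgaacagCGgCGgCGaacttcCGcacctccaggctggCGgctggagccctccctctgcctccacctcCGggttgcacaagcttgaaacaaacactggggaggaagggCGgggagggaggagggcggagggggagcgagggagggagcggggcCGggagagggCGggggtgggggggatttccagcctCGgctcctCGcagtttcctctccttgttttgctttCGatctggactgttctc

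Irf4 promoter, chr13:30748983-30749282, plus strand: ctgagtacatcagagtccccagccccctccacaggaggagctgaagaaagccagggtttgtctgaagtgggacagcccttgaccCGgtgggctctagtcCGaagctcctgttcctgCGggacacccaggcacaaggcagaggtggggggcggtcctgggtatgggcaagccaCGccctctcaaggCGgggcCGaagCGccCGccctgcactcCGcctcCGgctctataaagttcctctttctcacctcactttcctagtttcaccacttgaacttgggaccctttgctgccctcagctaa

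Irf8 promoter, chr8:120736108-120736407, plus strand: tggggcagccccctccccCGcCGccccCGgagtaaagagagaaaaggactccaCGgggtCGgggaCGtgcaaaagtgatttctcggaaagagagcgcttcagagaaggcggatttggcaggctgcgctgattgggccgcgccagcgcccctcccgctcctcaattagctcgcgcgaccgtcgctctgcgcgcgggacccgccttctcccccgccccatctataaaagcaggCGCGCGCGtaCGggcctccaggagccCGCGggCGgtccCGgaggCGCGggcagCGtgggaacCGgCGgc

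Averaged over the 8 mice, the measured promoter CpGs were close to unmethylated. The 25 measured CpGs of the Irf1 promoter averaged 0.0373% over the 8 mice, and the highest stood at 0.279%. The highest of the 16 in Irf2 was at 0.37%, of the 26 in Irf5 at 1.82%, of the 20 in Irf8 at 3.64% and of the 10 in Irf4 at 5.81%. The only measured CpG of the Irf7 promoter and the 4 of Irf9 were at 0%, and none of the Irf3 promoter was measured.

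Motif letters were searched on both strands of the 8 promoters. The core letters of the interferon-stimulated response element (GAAA, any 2 bases, GAAA) were found in 3.49% of the 27025 promoters and in that of Irf2, as GAAAATGAAA at -241 to -232 relative to the start. The letters of composite sites for an Ets factor with an interferon regulatory factor (GGAA, any 2 bases, GAAA) were found in 2.79% of promoters and again in Irf2, as GGAAGTGAAA at -247 to -238, overlapping the first match. TTCNNNGAA, the palindrome of STAT factors, was found in 8.47% of promoters. It was present as TTCCCCGAA in Irf1 at -90 to -82, as TTCCGAGAA in Irf2 at -224 to -216, and in Irf8 at -171 to -163 and at -153 to -145. The CpG inside the Irf2 match is among the measured CpGs of that promoter, and those inside the Irf1 and Irf8 matches were not measured. A match describes letters, not a bound site.

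Along the loci, methylated CpGs lay mostly in gene bodies and flanks, but not every measured body was mostly methylated. Gene CpGs beyond 1000 bp from the start averaged 18.9% in knockouts and 19.1% in controls in Irf2. They averaged 33.4 and 34.2% in Irf5, 34.5 and 35.2% in Irf4, and 77.7% or more in each other gene. Of the 734 CpGs, 416 (56.7%) were under 5% methylated on average over the mice, 160 (21.8%) lay between 5 and 95%, and 158 (21.5%) were over 95%. The shares among all autosomal CpGs were 56.2%, 24.5% and 19.3%. Within 1000 bp of a start 94.1% of 324 CpGs were under 5% and 0% over 95%, and farther away 27.1% of 410 CpGs were under 5% and 38.5% over 95%.

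**Figure D1:**
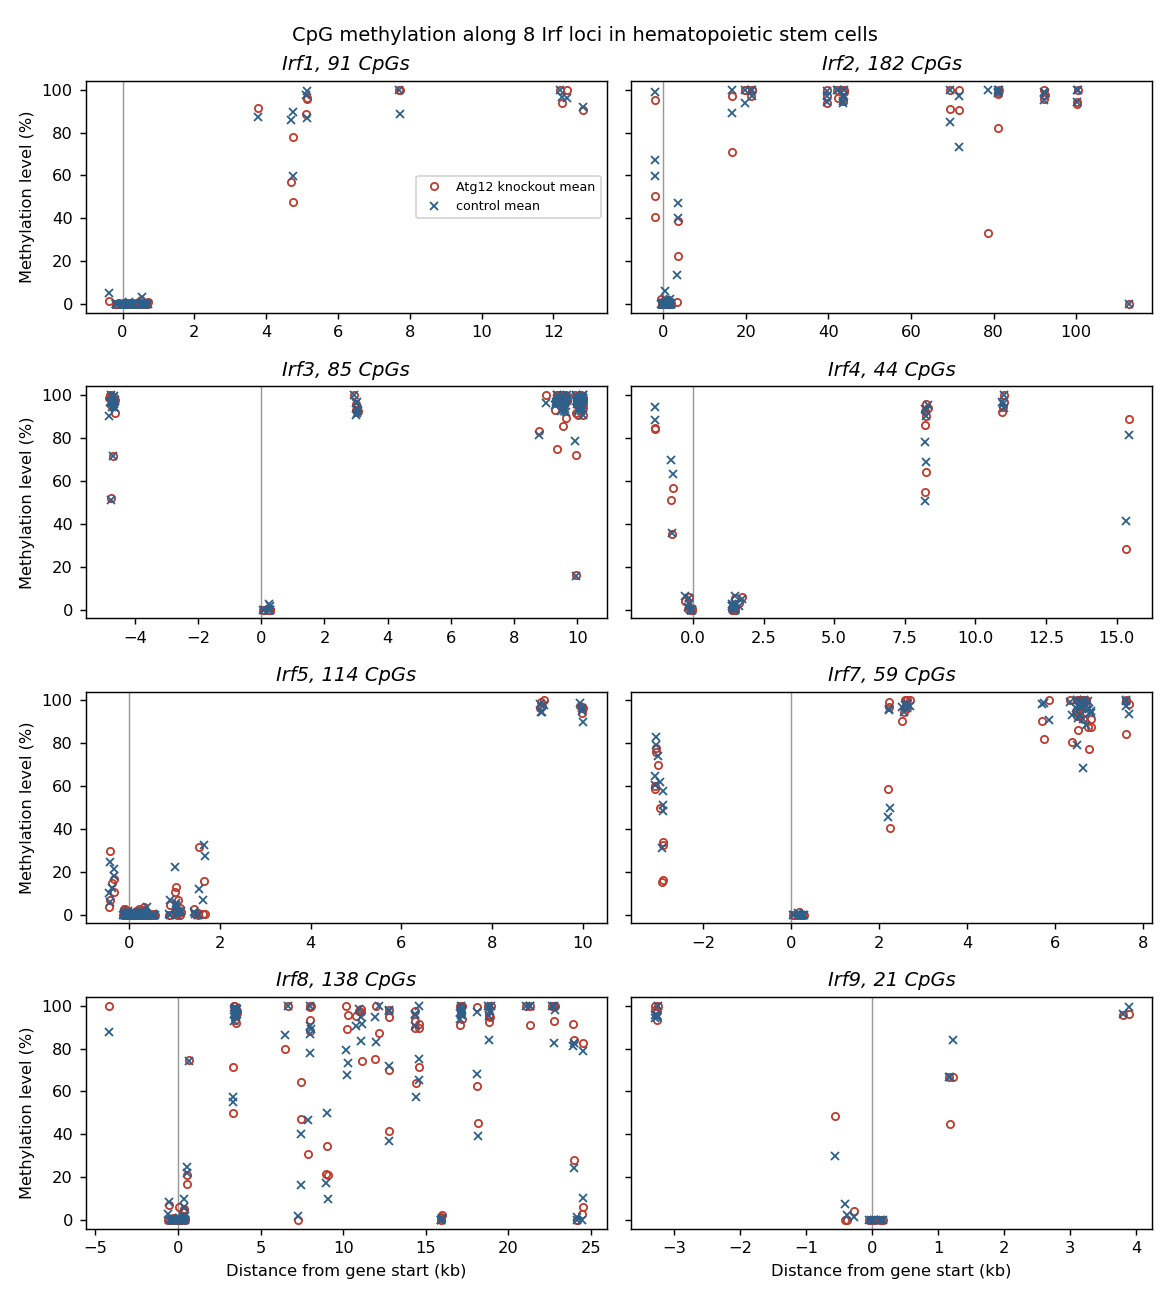
Methylation level in percent of each kept CpG against its distance in kb from the gene start, with a panel per gene; circles are means of the Atg12 knockout mice and crosses means of the control mice. Of the 734 CpGs, 416 lie under 5%, most of them around the starts, and the methylated CpGs lie in gene bodies and flanks.

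The width of the unmethylated stretch at the start, taken as the run of neighbouring measured CpGs under 20%, differed among the genes. Irf2 had 144 CpGs in such a run, from -479 to 3386 bp relative to the start. Irf5 had 99 from -385 to 1518, Irf1 78 from -370 to 721, Irf8 46 from -598 to 551, Irf4 26 from -263 to 1752 and Irf9 10 from -414 to 159. Irf2, a gene of 107.714 kb, thus had the longest of the 8 runs of measured CpGs. Gaps in the measurement leave other ends open as well. The next measured CpG downstream lay at 3782 for Irf1 and at 8204 for Irf4. Upstream it lay at -4166 for Irf8, and Irf1 had none. The full widths of the unmethylated stretches therefore cannot be ranked. The runs of Irf3 (10 CpGs from 60 to 280) and Irf7 (8 CpGs from 26 to 291) lay downstream of the start, and the next CpGs measured upstream were at -4631 and -2922, so their upstream ends are not known.

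The question of the study's design is whether stem cells that lost Atg12 carry another methylation pattern. At the Irf loci 160 CpGs between 5 and 95% were tested, fitted with all 313039 such autosomal CpGs by a moderated quasi-binomial model with Benjamini-Hochberg adjustment over the whole table. None of the 160 passed an adjusted p of 0.05 (smallest adjusted p = 0.376), where 0.00735% of all tested CpGs did. Without adjustment, 12 CpGs that were lower and 1 that was higher in knockouts had a p under 0.05, against 4.12% lower and 2.4% higher of all tested CpGs. There were 2 such CpGs in limma on log2 ratios of methylated to unmethylated reads. Of the 13, 9 lay in the Irf7 locus and 5 of these in 1 cluster of neighbours upstream of Irf7, where CpGs can share reads. The groups did not overlap at 3 of the 160 CpGs, 1 lower and 2 higher in knockouts, against 1.54% lower and 1.57% higher of all tested CpGs. Mean levels were lower in knockouts at 92 and higher at 67 CpGs, with a median difference of -1.43 percentage points, against -0.902 for all tested CpGs. The spread over the 8 mice had a median SD of 11.8 points at the Irf CpGs and 12.8 points at all tested CpGs.

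Larger units gave no call either. Of the 45 windows of 1 kb measured in the loci, 17 lay between 5 and 95%. None passed in the same model with Benjamini-Hochberg adjustment (smallest adjusted p = 0.729), as none of all 39903 tested windows did (0%). At an unadjusted p under 0.05 there were 2 lower and 1 higher, against 4.4% and 2.1% of all tested windows, and 1 with limma on log2 ratios. The groups overlapped in each of the 17, where they did not in 3.48% of all tested windows. The mean of each locus, with equal weight per CpG, did not pass for any of the 8 genes in limma (adjusted p = 0.998 for each), nor for any of all 11556 loci (0%). With equal weights none of the 8 reached an unadjusted p under 0.05 in limma, against 4.4% of all loci. With equal weights the groups overlapped for each of the 8, where they did not for 2.68% of all loci. Exact permutation tests of the 8 means restate that overlap. With 4 mice against 4 they cannot go below 0.0286, and they reach it only where the groups do not overlap. With reads summed in place of equal weights, where each library's coverage enters, the locus differences moved to -12.2 percentage points for Irf4, -11.1 for Irf7, -15.8 for Irf9 and -3.79 for Irf8, against -1.22, -3.18, -0.12 and 1.13 points, and none passed (adjusted p = 0.999 in limma for each). Of the 7 Irf loci in the tested range with reads summed, 3 had an unadjusted p under 0.05 in limma (Irf4 0.00149, Irf7 0.0355 and Irf9 0.0406), all lower in knockouts, against 2.29% of all 9814 such loci. In 1 of the 7 the knockouts lay below the controls without overlap, against 1.13% of all. Irf4 was chosen for the summed level at its start, which is part of its locus, so its p is a description only. With reads summed, 7352 of all loci were lower in knockouts and 2462 higher, with a median difference of -1.34 percentage points. With equal weights these were 6010, 5546 and -0.0275. The 3 of 7 therefore cannot be read as an excess at the Irf loci. Locus means per mouse ranged from 6.69% for Irf1 in knockout 46 to 83.3% for Irf3 in knockout 25.

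**Figure D2:**
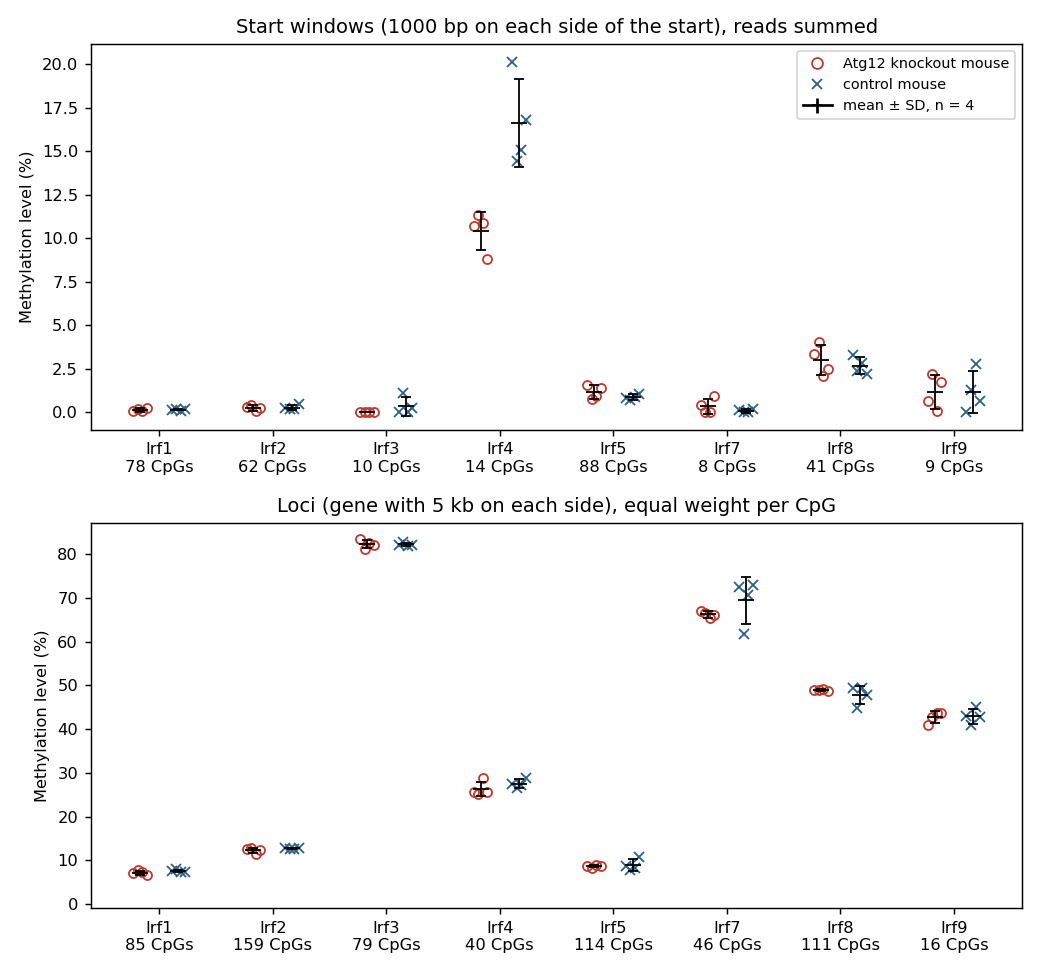
Methylation level in percent of each mouse, in the window of 1000 bp on each side of the start (upper panel, reads summed) and over the locus with 5 kb on each side (lower panel, equal weight per CpG); circles are Atg12 knockout mice, crosses control mice, and bars mean ± SD (n = 4 each). In the upper panel only Irf4 exceeds 5%, with knockouts at 8.80 to 11.3% and controls at 14.4 to 20.1%, and in the lower panel, with equal weights, the groups overlap for every gene.

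Irf3, which is present in resting cells and is activated by phosphorylation when foreign nucleic acid is sensed, had an unmethylated start and a methylated surround. It spans 44997648 to 45002848 on chromosome 7. Its 10 start CpGs were at 0% in each of the 4 knockouts, and in controls at 0, 1.12, 0 and 0.233%. The knockouts had 229 to 622 summed reads there, so that a count of 0 allows up to 1.31% in knockout 28. These reads are summed over 10 CpGs that can share them, so the limit may be higher. The locus mean of Irf3 was the highest of the 8, at 82.3% ± 0.872 in knockouts and 82.2% ± 0.372 in controls (SD, n = 4 each). That mean rests mostly on flanks: of the 79 CpGs, 50 lay downstream of Irf3, 13 upstream and 6 in the rest of the gene. Its upstream flank, which overlaps Bcl2l12 and Gm15545, averaged 91.7% ± 1.29 in knockouts and 90.6% ± 1.39 in controls. The downstream flank, part of which lies in Scaf1, averaged 95% ± 1.24 in knockouts and 95% ± 0.365 in controls.

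Irf7, the interferon-induced factor that amplifies the type I interferon response, held the CpG of smallest p in the family. It runs on the minus strand of chromosome 7 from 141263183 to 141266499, between Phrf1 and Cdhr5. Its 8 start CpGs were unmethylated, at 0.34% ± 0.446 in knockouts and 0.0806% ± 0.0967 in controls. CpGs within the gene averaged 83.1% ± 3.09 in knockouts and 82.8% ± 1.36 in controls, and those beyond its end 94.0% ± 5.2 and 95.2% ± 2.74 (SD, n = 4 each).

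The cluster upstream of Irf7 consists of 10 CpGs from 141269345 to 141269535, at -2922 to -3112 bp relative to the start and inside Cdhr5, a gene for a cadherin-related protein. Whether these CpGs act on Irf7, Cdhr5 or neither was not measured. Its summed level was 49.4, 38.1, 60.9 and 43.5% in knockouts, against 70.6, 34.2, 66.1 and 71.7% in controls. All 4 knockouts lay below controls 1, 36 and 37, and control 34 lay below all knockouts. The means were 48.0% ± 9.76 in knockouts and 60.7% ± 17.8 in controls, a difference of -12.7 percentage points that did not pass (Benjamini-Hochberg adjusted p = 0.74 in the quasi-binomial model). Without control 34, the library of lowest coverage of methylated DNA, the controls averaged 69.5% ± 2.94 (SD, n = 3) and the difference was -21.5 points, which also did not pass (adjusted p = 0.171).

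Within the cluster, each of the 10 CpGs had a lower mean in knockouts, and control 34 was the lowest control at all 10. At 5 of them every knockout lay below controls 1, 36 and 37. The CpG nearest to Irf7, at 141269345, was at 20.8, 0, 5.85 and 37.8% in knockouts and at 65.9, 0, 56.7 and 71.9% in controls. It averaged 16.1% ± 16.9 in knockouts and 48.6% ± 33.0 in controls (SD, n = 4 each), with 140 to 484 reads per mouse. The 0% of control 34 rests on 140 reads, which allow up to 2.14%, and that of knockout 28 on 290 reads, which allow up to 1.03%. The CpG did not pass with all 8 mice (adjusted p = 0.376) but did without control 34, where the controls averaged 64.8% ± 7.66 (SD, n = 3; Benjamini-Hochberg adjusted p = 0.0467 in the quasi-binomial model). That fit leaves out a library after the fact, and 31 of the 308887 CpGs tested in the whole table passed in it. Leaving out control 34 also moved the median difference of all tested CpGs from -0.902 to -2.29 percentage points. With knockout 25 left out as well, no Irf CpG passed (smallest adjusted p = 0.308 in the quasi-binomial model).

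**Figure D3:**
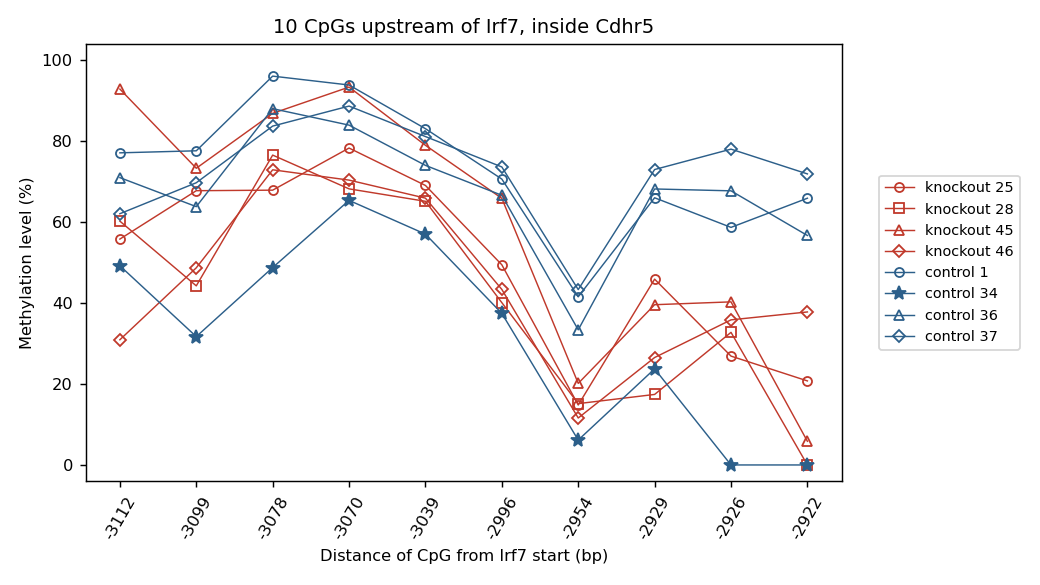
Methylation level in percent at the 10 CpGs upstream of Irf7 against their distance in bp from the gene start, a line per mouse; red lines are the 4 Atg12 knockout mice and blue lines the 4 control mice. Controls 1, 36 and 37 run above the knockouts at the CpGs nearest the gene, and control 34 is the lowest of the controls at all 10, with 0% at -2922.

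Elsewhere in the Irf7 locus, the CpG at 141259789, 6634 bp downstream of the start in Phrf1, was at 100% in each knockout and at 96.2, 2.50, 86.1 and 89.1% in controls. The groups do not overlap there, and the mean of the controls is pulled down by control 34, which had 40 reads against 72 to 128 in the other mice. It did not pass (Benjamini-Hochberg adjusted p = 0.755 in the quasi-binomial model). The locus mean was 66.2% ± 0.723 in knockouts and 69.4% ± 5.27 in controls, with control 34 at 61.6% and the other controls at 70.5 to 73.0%, above the highest knockout at 67.0%. Without control 34 the difference of the locus means was -5.76 percentage points (adjusted p = 0.293 in limma).

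Irf5, a factor activated by Toll-like receptors in myeloid and B cells, had the most start CpGs of the family. Its 88 start CpGs were at 1.15% ± 0.387 in knockouts and 0.868% ± 0.16 in controls (SD, n = 4 each). On chromosome 6 it spans 29526130 to 29541869. The windows that begin 9042 and 9933 bp from its start were methylated, at 98.5% ± 0.809 in knockouts and 95.6% ± 1.52 in controls for the first, and at 95.8% ± 3.26 and 95.2% ± 3.24 for the second. Between start and body, the CpG at 29527643 was at 19.1, 9.24, 0 and 14% in knockouts and 34, 25, 17.6 and 12.0% in controls. The groups overlap, and it did not pass (Benjamini-Hochberg adjusted p = 0.8 in the quasi-binomial model).

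Irf9, the DNA-binding subunit of the complex formed after type I interferon, was thinly covered, with 21 kept CpGs. It spans 55603985 to 55610030 on chromosome 14. Its 9 start CpGs were at 1.16% ± 0.989 in knockouts and 1.18% ± 1.2 in controls. Upstream, in Rnf31, 5 CpGs averaged 97.6% ± 3.31 in knockouts and 95.9% ± 2.96 in controls. At the border between both, the CpG at 55603413 (-572) was at 31.2, 52.9, 82.7 and 26.6% in knockouts, and at 11.4, 54.8 and 23.1% in controls 1, 34 and 36, with control 37 not covered. It rested on 31 to 81 reads per mouse, the groups overlap, and it did not pass (Benjamini-Hochberg adjusted p = 0.832 in the quasi-binomial model).

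Irf1, an activator that interferon induces and the factor first found to bind the interferon-beta promoter, was unmethylated over its whole start. It occupies 53770014 to 53778374 on chromosome 11. The 78 start CpGs, among them those in capitals in its promoter, were at 0.138% ± 0.0931 in knockouts and 0.139% ± 0.0362 in controls (SD, n = 4 each). Levels per mouse ran from 0.0456 to 0.25% in knockouts and from 0.097 to 0.176% in controls, on 14431 to 25358 summed reads. In the body of the gene, the CpG at 53774702 was at 54.7, 67.7, 47.8 and 57.4% in knockouts, and at 83.5, 76.1 and 97.5% in controls 1, 36 and 37, with control 34 not covered. The groups do not overlap, with a difference of -28.8 percentage points, but the CpG did not pass (Benjamini-Hochberg adjusted p = 0.739 in the quasi-binomial model). Its neighbour at 53774756 had 100% in both knockout 28 and control 34 and differed by -11.2 points, with overlapping groups. Leaving out 1 mouse at a time gave -18.5 points without knockout 28 to -3.68 points without knockout 45, and -7.66 points without control 34, which had 25 reads there.

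Irf2, which competes with Irf1 for the same sites, was nearly unmethylated over its start window in every mouse. On chromosome 8 it runs from 46739745 to 46847458. The 62 start CpGs with 10 or more reads in all mice were at 0.248% ± 0.15 in knockouts and 0.27% ± 0.153 in controls. Farther into the gene, the CpG at 46743131, 3386 bp from the start, was at 3.43, 0, 0 and 0% in knockouts, and at 0, 30.2, 7.41 and 16.5% in controls. The groups overlap through control 1, and the difference of -12.7 points (-7.12 without control 34) did not pass (Benjamini-Hochberg adjusted p = 0.767 in the quasi-binomial model). Windows in the body that begin 43590 and 92283 bp from the start were at 96.6% ± 2.85 in knockouts and 96.3% ± 0.826 in controls for the first, and at 97.7% ± 3.06 in knockouts and 97.5% ± 1.92 in controls for the second. Upstream, 3 CpGs at -2093 to -1949 were at 77.1, 69.6, 53.7 and 62.8% in knockouts, and at 78.1, 72.5, 70.3 and 76.1% in controls. The groups overlap, with 3 of 4 knockouts below all controls, and the difference of -8.49 points did not pass (Benjamini-Hochberg adjusted p = 0.877 in the quasi-binomial model). Leaving out 1 mouse at a time gave -12.2 points without knockout 25 to -4.45 points without knockout 45.

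Irf4, a factor of B cells, plasma cells and T cells that is also active in some myeloid cells, was the only member whose start window lay above 5%. Irf4 spans 30749233 to 30766981 on chromosome 13. With reads summed over 14 CpGs, it stood at 10.7, 11.3, 10.9 and 8.80% in knockouts, against 20.1, 14.4, 15.1 and 16.8% in controls. Every knockout lay below every control, with means of 10.4% ± 1.11 in knockouts and 16.6% ± 2.55 in controls, a pattern that led to the choice of this gene. The difference did not pass in the table of 1680 start windows (Benjamini-Hochberg adjusted p = 0.684 in the quasi-binomial model), where 0% of windows passed and 2.08% were lower in all knockouts than in all controls. The 7 other start windows were under 5%, as were 85.6% of 13413 measured start windows.

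The partly methylated reads of that window came from its far end. The 11 CpGs from -263 onward, which include the capitals of the printed promoter, averaged 1.02% ± 0.821 in knockouts and 1.44% ± 1.07 in controls. The 3 CpGs at -764, -748 and -705 averaged 47.6% ± 16.6 in knockouts and 56.3% ± 9.27 in controls (SD, n = 4 each, equal weight per CpG). These 3 took 31.0, 25.6, 15.3 and 24.7% of the summed reads in knockouts, and 32.6, 30.1, 28.2 and 29.6% in controls. The share was lower in 3 of the 4 knockouts than in any control, so the summed level holds both a level and a share of coverage.

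With equal weight per CpG, an alternative chosen after seeing the data, the window was at 8.56, 10.02, 17.2 and 8.26% in knockouts and 14.9, 11.6, 12.3 and 14% in controls. The groups overlap on that scale, with knockout 45 the highest of the 8 mice. Its means were 11.0% ± 4.19 in knockouts and 13.2% ± 1.51 in controls, and the difference of -2.19 percentage points did not pass (adjusted p = 0.996, limma with Benjamini-Hochberg adjustment). At the CpG at -764 (30748469), levels were 40.4, 25.3, 100 and 37.8% in knockouts and 81.2, 48.3, 72.6 and 76.8% in controls. Knockout 45, which stands above all controls there, had 32 reads, and the other mice 203 to 335. The CpG did not pass (Benjamini-Hochberg adjusted p = 0.721 in the quasi-binomial model).

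**Figure D4:**
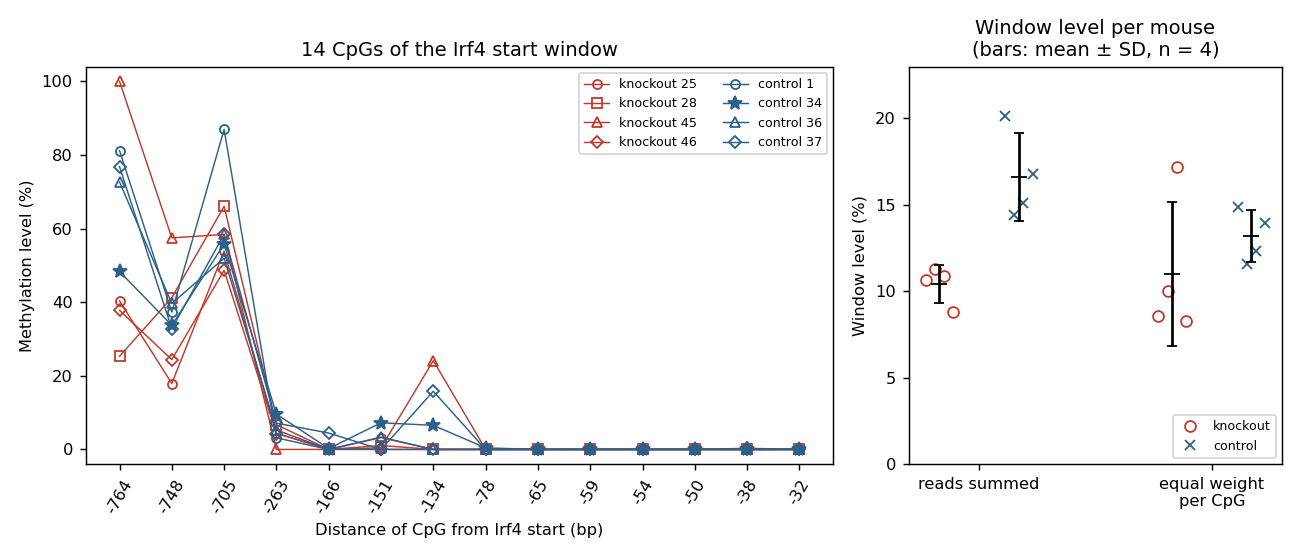
Left, methylation level in percent at the CpGs around the Irf4 start against distance in bp, a line per mouse; right, the level of the start window in percent per mouse with reads summed and with equal weight per CpG, circles for Atg12 knockout mice and crosses for control mice. With reads summed the knockouts (8.80 to 11.3%) lie below the controls (14.4 to 20.1%), and with equal weight they overlap.

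Further into Irf4, a window at 8204 to 8313 bp from the start was at 82.0% ± 1.01 in knockouts and 80.1% ± 0.812 in controls, with the highest control (81.2%) above the lowest knockout (80.6%). The measured unmethylated CpGs reached 1752 bp into the gene, and the next measured CpG lay at 8204 bp. Among the 1679 other tested start windows, those whose level over the 8 mice was most like that of Irf4 were Tspoap1 (Pearson r = 0.949, n = 8 mice) and Csf2rb (r = 0.918), the gene of the beta chain that several hematopoietic cytokine receptors share. Tspoap1 was at 25.1% ± 5 in knockouts and 40.4% ± 4.39 in controls, and Csf2rb at 12.3% ± 2.62 and 22.7% ± 5.64. They share the libraries and the summing of reads with Irf4, so the likeness is a description only.

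Irf8, which is needed for monocytes and dendritic cells and works with Pu.1 and Batf3, had a mixed pattern and 49 of the 160 tested CpGs. Its coordinates are 120736358 to 120756694 on chromosome 8. Its 41 start CpGs were at 2.99% ± 0.87 in knockouts and 2.66% ± 0.488 in controls (SD, n = 4 each), and the first methylated window, from 3307 bp, at 92.9% ± 1.14 and 92.5% ± 1.1. A second unmethylated place lay inside the gene at 15907 to 15975 bp from the start, with 4 CpGs at 0.914% ± 1.25 in knockouts and 0.191% ± 0.316 in controls. Its neighbours were methylated, with the window from 14327 bp at 84.9% ± 2.71 in knockouts and 87.0% ± 3.19 in controls, and that from 17094 bp at 98.2% ± 1.09 and 96.7% ± 0.716.

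The window at 7280 to 7465 bp was the one of Irf8 with the smallest p. Its 3 CpGs were at 37.8, 47.5, 20.4 and 42.3% in knockouts and 24.0, 4.35, 24.6 and 1.83% in controls. Knockout 45 lay within the range of the controls and the other knockouts above it. The means were 37% ± 11.8 in knockouts and 13.7% ± 12.3 in controls, a difference of 23.3 percentage points that did not pass (Benjamini-Hochberg adjusted p = 0.739 in the quasi-binomial model). It rested on 109 to 265 summed reads per mouse, and single CpGs within it ran from 0 to 90.9% among the controls.

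At 10178 to 10284 bp levels were 92.6, 88.7, 94.6 and 100% in knockouts, against 90.7, 11.5, 95.7 and 95.6% in controls. Only control 34 stood apart, with 52 summed reads and a 95% Wilson interval from 5.40 to 23%. The reads are summed over 3 CpGs that can share them, so this interval may be too narrow. Without control 34 the groups were at 94.0% ± 4.7 in knockouts and 94.0% ± 2.86 in controls (n = 3), against a difference of 20.6 percentage points with it. Downstream of the gene, 8 CpGs at 23919 to 24542 bp were at 47.6, 37.7, 65.2 and 52.3% in knockouts and 58.3, 36.2, 56.4 and 38.3% in controls, with overlapping groups. The CpG at 120755169 was at 88.9, 91.3, 88.6 and 100% in knockouts and 88.4, 77.7, 88.0 and 82.4% in controls, without overlap, and did not pass (Benjamini-Hochberg adjusted p = 0.823 in the quasi-binomial model). The locus mean was 48.9% ± 0.213 in knockouts and 47.8% ± 2.12 in controls, with control 34 lowest at 44.8%.

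**Figure D5:**
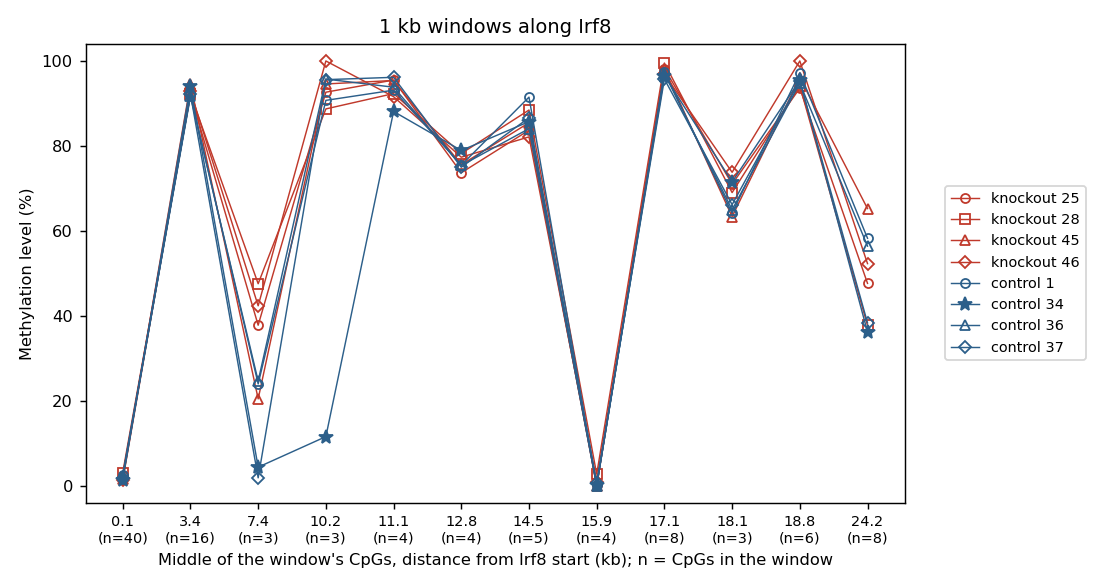
Methylation level in percent of the 1 kb windows along Irf8, ordered by distance in kb from the start, a line per mouse; red lines are Atg12 knockout mice and blue lines control mice. The start and the place at 15907 to 15975 bp lie near 0%, the window at 7280 to 7465 bp spreads from 1.83 to 47.5%, and control 34 stands at 11.5% in the next window.

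The genes that signal to or work with these factors had mostly unmethylated starts, as did 85.6% of all 13413 measured start windows (under 5%). The list held 51 entries for sensors and adaptors, interferon receptors, kinases and STATs, inhibitors and IRF partners, some of them other names of the same gene. Of the entries, 47 were in the gene table, 38 had a measured start window and 35 of these were under 5%. All 6 receptor genes, all 8 measured kinases and STATs and all 5 measured inhibitors were among them. The receptor subunit Ifnar1 was at 0.126% ± 0.0749 in knockouts and 0.204% ± 0.0926 in controls (SD, n = 4 each). Some genes, among them Spi1 and Sting1, had no listed start, and the gene end with more listed CpGs stood in for it. Their CpGs may therefore lie at the other end of the gene. Spi1, which encodes the partner Pu.1 of Irf4 and Irf8, was over 95% on average at its 3 measured CpGs, with 94.0% ± 6.56 in knockouts and 97.9% ± 1.45 in controls. Mavs, the adaptor of RNA sensing, was at 25% ± 6.13 in knockouts and 31.5% ± 7.57 in controls, and Sting1, the adaptor of DNA sensing, at 58.5% ± 10.4 in knockouts and 54.2% ± 12.2 in controls. These 2 were the tested members, and neither passed (Benjamini-Hochberg adjusted p = 0.915 for Mavs and 0.965 for Sting1 in the quasi-binomial model) nor reached an unadjusted p under 0.05.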

How the data were processed

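Methylation was measured in 8 individual mice, 4 Atg12 knockout and 4 control, 1 library each, and the mice were the replicates of every test. In the quasi-binomial and limma fits, the spread between mice was moderated toward that of all tested features. The quasi-binomial model also gave mice with more reads more weight. The authors deposited, per cytosine, a read count (coverage, 10 or more at every listed cytosine) and the percent of reads showing C or T, per the file headers. CASAVA 1.8.2 and Bismark with build mm10 are named in the submitters' processing notes; duplicate handling and filters were not given in the sources used here. Reads carry no molecular identifiers, so intervals and floors (3 counts) cover counting error only. In windows they also treat the reads at neighbouring CpGs as separate, although CpGs can share reads.

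Coverage times percent, rounded, gave methylated reads, and strands were merged. Autosomal CpGs, 1 kb windows (3 or more CpGs), start windows (1000 bp on each side) and locus means were fitted on the whole table where the mean level was 5 to 95%. CpGs and windows used a logistic model with quasi-binomial overdispersion moderated by limma 3.58.1 in R 4.3.3 (not under 1), locus means limma, with Benjamini-Hochberg adjustment at 0.05. At a CpG with a mouse under 10 reads, that mouse was left out of the fit; windows used CpGs read in all 8. The model was tested on simulated data. RefSeq tables of GRCm38.p6, the mm10 build, gave genes and starts; exons were not used here. All 8 genes matched a promoter row; of 20665 autosomal protein-coding genes, 4208 had none, and the gene end with more listed CpGs served as their start.

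The 8 genes, their tested windows, the 2 tested CpGs of smallest p per gene and the genes most like Irf4 were named by rule; CpGs named because their groups did not overlap, the 3 far CpGs of Irf4 and the other levels inside windows were chosen after their values were seen. Members, marker and pathway lists were chosen with earlier results of these data known. Alternatives were a coverage minimum of 20, levels of 10 to 90%, a coverage cap at the 99.9th percentile, limma on log2 ratios with 1 read added or exact permutation, all mice or 3 per group covered, other window widths and weights, and leaving out each mouse. Values of some list members are not reported here.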

Additional observations from a re-analysis of the deposited data

Results flagged for a closer look

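Among the results above, 92 groups of 4 mice were examined for a mouse far from the other 3. The measure was the gap to its nearest neighbour over the range of the group (Dixon's test at 95%). Such a mouse was found in 11 groups (12%). Chance gives about 1 in 20 for independent, normally distributed values. These groups are not independent, as windows were counted along with CpGs inside them. Where the other 3 mice tie, as in the groups with knockout 25 outlying, any difference is flagged. The 12% therefore cannot be compared with that rate. No explanation was tested for any of the 11.

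Knockout 25 was outlying in 3. It stood at 3.43% at the Irf2 CpG at 46743131 and at 0.885% at the Irf5 CpG at 29528309, where the other knockouts were at 0%, and at 73.0% at the Irf9 CpG at 55600724, where they were at 100%. At the same Irf5 CpG control 37 stood at 100%, on 24 reads, with the nearest control at 5.61%. Knockout 45 stood at 28.8% in the locus mean of Irf4, with the nearest knockout at 25.6%.

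Control 34, the library of lowest coverage of methylated DNA, was the outlying mouse in 6. It stood at 34.2% in the window upstream of Irf7 (nearest other control 66.1%) and at 23.7% at the CpG at 141269352 in it (66.0%). In Irf8 it stood at 11.5% in the window from 120746001 (90.7%), at 33.3% at its CpG at 120746536 (90.9%), on 18 reads, and at 78.9% in the window from 120749001 (75.5%). In the Irf1 window from 53775001 it stood at 100% (93.6%).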

How the results depend on the processing

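The 4 counts of passing features at the Irf loci (CpGs, windows, start windows and locus means) stayed at 0 under the alternatives, with 1 exception. Leaving out each mouse gave 0 to 1 CpGs, the 1 being the CpG upstream of Irf7 without control 34. Some of these zeros say little. With exact permutation a pass of a locus mean was out of reach, as its smallest p is 0.0286 before adjustment over 11556 loci. The count for start windows rests on 1 tested window, that of Irf4, which was chosen for its values. Over all autosomes, 23 CpGs passed with all mice, and 0 to 156 under the alternatives: 156 without knockout 45, 31 without control 34, 40 with 20 or more reads, 3 without both knockout 25 and control 34, 1 with the coverage cap and 0 with limma on log2 ratios or without knockout 25; for windows the range was 0 to 29. Directions turned in 19 of 261 recomputed window values, 9 of 116 locus values and 1 of 204 CpG values. Signs also turned for start windows under 5%, such as Irf5 (0.284 with all mice and -0.0755 with equal weight per CpG), Irf8 (0.327 and -0.187) and Irf9 (-0.02, and 1.2 with 10 or more reads in at least 3 mice of each group). Equal weight per CpG and leaving out knockout 25 with control 34 were added after seeing the data. Equal weight gave -0.161 percentage points in the Irf8 window from 120747001. Equal weight without control 34 gave 0.903 in the Irf1 window from 53775001, 0.275 in the Irf3 window from 45000001 and -2.21 in that Irf8 window. Without knockout 25 and control 34 these were 2.66 (Irf1) and -1.26 (Irf8), and the Irf3 locus -0.062. With 1 kb flanks the Irf3 locus was at -0.289 and the Irf7 locus at 0.133, and with reads summed the Irf8 locus at -3.79. Leaving out each mouse gave, from lowest to highest, -3.64 to 0.406 for the Irf9 CpG at 55600724, -2.29 to 1.28 for the Irf1 window, -1.72 to 0.483 for the Irf3 window, -0.0963 to 0.986, -0.036 to 28, -0.658 to 2.02, -0.659 to 0.922 and -1.42 to 7.76 for the Irf8 windows from 120739001, 120746001, 120747001, 120749001 and 120760001, and -0.242 to 0.452, -0.639 to 0.39 and -0.781 to 0.577 for the loci of Irf3, Irf5 and Irf9. The cause was not tested. The start window of Irf4 was not in the tested range with 500 bp on each side. No pairing of mice between the groups was given in the sources used here, so no paired analysis was run. Depth limits single CpGs, in Irf2 and Irf8 among others, that had under 20 reads in some mice.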
